A study of Bos taurus with 12 samples.

Results

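A bovine conceptus on Day 13 is an ovoid embryo about to elongate, made of an outer trophectoderm, an inner hypoblast that forms the yolk sac, and an epiblast disc that will give rise to the calf. Its trophoblast secretes interferon tau, the signal by which the ruminant mother recognises pregnancy, together with pregnancy-associated glycoproteins (PAG) and Kunitz-domain proteins (TKDP). The comparison described here asked whether conceptuses of that age still differed by where their blastocysts had been made. It set 3 arrays of Day 13 conceptuses of in vitro origin against 3 arrays of Day 13 conceptuses of in vivo origin, out of 12 arrays in the study, with the remaining 6 holding Day 7 blastocysts of both origins.

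In vitro blastocysts (Bos taurus) came from IVF and in vivo blastocysts from superovulation. On Day 7 both kinds were placed, 10 to a heifer, in recipients synchronized for the transfer, so every Day 13 conceptus of either origin had spent its last 6 days in a uterus. Each Day 13 array held RNA from a pool of 5 conceptuses frozen one by one, and each Day 7 array RNA from a pool of 25 blastocysts. Labelled target was made from 75 ng of total RNA by a 2-cycle protocol, and 24016 Affymetrix probe sets were tested after the 112 control probe sets were set aside. The labels call the pools biological replicates without saying which donors, IVF batches or recipients they came from, so the p-values measure the spread between pools. In pooled bulk RNA, fewer cells of a type and less RNA per cell cannot be told apart, and neither the sex nor the size of the conceptuses is given.

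All levels are log2 intensities as the authors deposited them, and a difference is in vitro minus in vivo on that scale. A level of 3.39, the 99th percentile of 48 control probe sets with no bovine target, was taken as background. A probe set was called at an adjusted p below 0.05 in limma's moderated test with Benjamini-Hochberg adjustment over all 24016 probe sets. In a group that was at background on all its arrays, a fold is given as a lower bound, the brighter group's mean over the background level.

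The Day 13 in vitro arrays stood apart in their spike-in controls, and replicates 1 and 2 most of all. The poly-A spike-ins, bacterial transcripts added to each RNA sample before labelling, averaged 9.27, 10.50 and 12.99 over 24 probe sets on in vitro replicates 1, 2 and 3, against 14.57, 14.53 and 14.25 on the in vivo arrays. The 2 groups did not overlap and differed by -3.53 (exact permutation test, two-sided, p = 0.1, the smallest that 3 arrays against 3 allow). The hybridization spike-ins, added later, read 10.38, 10.84 and 11.96 in vitro and 12.73, 12.91 and 13.29 in vivo over 18 probe sets, a difference of -1.92 (exact permutation test, p = 0.1). The probe set in the middle of the eIF-4E transcript ran the other way, at 11.65, 10.59 and 8.60 in vitro against 8.0, 7.94 and 7.14 in vivo. The middle EF1A probe set did likewise, at 7.80, 5.69 and 2.82 against 2.62, 2.39 and 2.38, whereas the 3′ probe sets of GAPDH and cyclophilin differed by -0.14 and 0.46 (exact permutation test, p = 0.6 and 0.4). For the middle EF1A probe set, every in vivo array and in vitro replicate 3 were below background. The 3′ minus 5′ level, a sign of RNA and labelling quality, differed by -0.91 for GAPDH, -0.43 for cyclophilin, -0.96 for eIF-4E and -0.70 for EF1A (exact permutation test, p = 0.2, 0.3, 0.4 and 0.1). The 5′ eIF-4E probe set read 2.25, at background, on every in vivo array and in vitro replicate 3. It read 6.44 and 4.75 on in vitro replicates 1 and 2, so the eIF-4E value rests in part on unmeasured levels. In both spike-in sets and in the eIF-4E middle probe set, in vitro replicate 3 lay nearest to the in vivo arrays. Over all tested probe sets it also correlated better with in vivo replicates 1 and 3 (r = 0.980 and 0.981, across probe sets) than with in vitro replicates 1 and 2 (0.968 and 0.977), and less well with in vivo replicate 2 (0.960). What part the spike-in differences had in the differences below was not tested beyond the values given beside them. Results are therefore also given with in vitro replicate 3 as the only in vitro array, whose spread is then assumed to be that of the other groups, and with the poly-A level as a covariate.

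**Figure D1:**
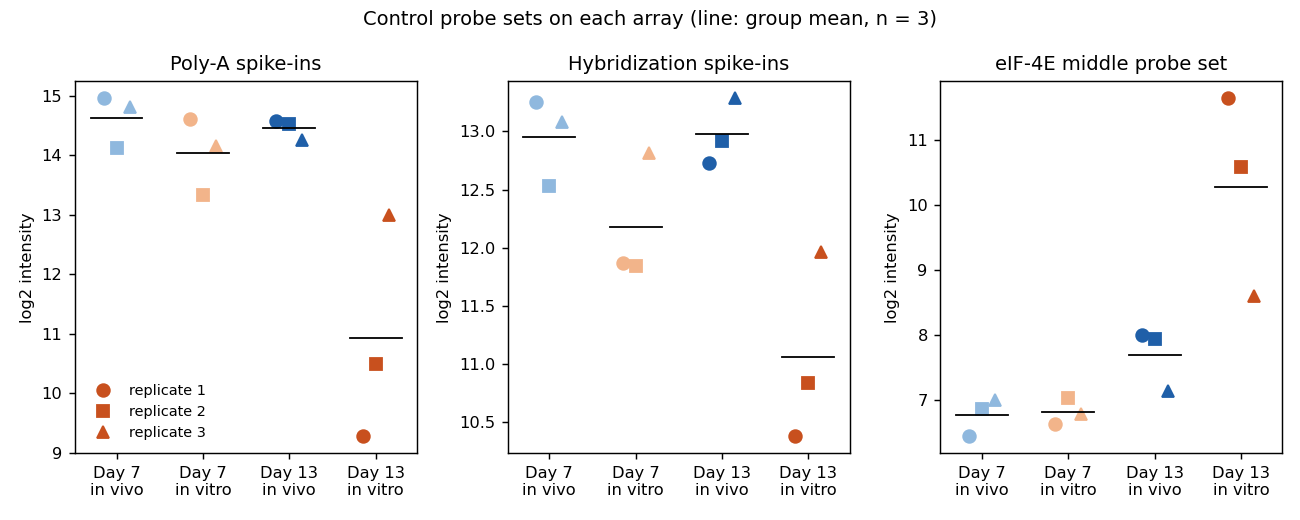
Mean log2 intensity of the 24 poly-A spike-in probe sets, the 18 hybridization spike-in probe sets and the middle eIF-4E probe set on each of the 12 arrays; each point is 1 array, marked by replicate number, and the line is the mean of the 3 arrays of a group. Both kinds of spike-in were lowest, and eIF-4E highest, on Day 13 in vitro replicates 1 and 2.

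At Day 13, conceptuses of the 2 origins differed in 288 of 24016 probe sets, 1.2% of those tested. Of these, 155 were higher in vitro (0.645%) and 133 lower (0.554%). The size of the difference had a median of 2.15 among the higher and 2.28 among the lower probe sets, and it exceeded 2 on the log2 scale in 89 and 74 of them. The 2 groups of pools did not overlap in any of the 288 probe sets, beside 14.7% of all probe sets and 29.8% of those above background on at least 3 of the 12 arrays. In 33 of the higher probe sets all in vivo pools were at background, and in 46 of the lower ones all in vitro pools were. Some calls thus concern transcripts measured in conceptuses of one origin and below measurement in the other. In 9 of the lower probe sets both groups were at background, and those calls rest on differences among unmeasured levels. Where some groups are at background, the spread used by the test includes the small spread of such floor values, so its p-values are too small for the measured group.

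In vitro replicate 3 was the in vitro pool nearest to the in vivo mean in 112 of the 155 higher and 83 of the 133 lower probe sets, beside 56.4% of the uncalled probe sets above background. With replicate 3 as the only in vitro pool, 459 probe sets were called (1.91%), of which 88.0% were higher in vitro, 91 were among the 288 and 244 were at background on all 12 arrays. With the poly-A level as a covariate 9 were called (0.0375%), 8 of them among the 288. A fit to only the 6 Day 13 arrays called 0 probe sets in limma, although 2178 had an unadjusted p below 0.05. Normalization shifted the split: 53.8% of calls were higher in vitro on the deposited scale, 43.4% of 297 after quantile normalization, and 9.44% of 12836 after centring each array on its median, where 9593 of the calls were probe sets at background on all 12 arrays. The median difference over probe sets above background was 0.08 as deposited, -0.08 after quantile normalization, -0.17 with median centring and 0.18 with centring on ribosomal protein genes.

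Among secreted proteins, the complement regulator CFI and the growth factor AREG were measured in the in vitro pools alone. CFI, a serum protease that cuts activated C3, read 2.33, 2.23 and 2.23 in in vivo pools 1, 2 and 3 and 7.18, 8.68 and 6.73 in in vitro pools 1, 2 and 3. All in vivo pools were at background, and the in vitro mean was 17.6-fold over the background level, a lower bound (difference 5.26 ± 0.41 SE, limma adjusted p = 0.000833). AREG, amphiregulin, a ligand of the EGF receptor, read 2.26, 2.26 and 2.42 in vivo and 7.99, 5.38 and 6.72 in vitro. Again all in vivo pools were at background, and the in vitro level exceeded theirs at least 9.88-fold (4.38 ± 0.52, adjusted p = 0.00795). With replicate 3 as the only in vitro pool the differences were 4.47 for CFI and 4.40 for AREG, with no p given because the other groups were all at background. With the poly-A covariate they were 4.62 and 3.74, and neither was called (adjusted p = 0.112 and 0.325).

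Secreted proteins that were lower in vitro included an apolipoprotein, an inhibitor of matrix proteases and a WNT antagonist family member. APOA2, a protein of high-density lipoprotein made by yolk sac and liver, read 7.63, 10.16 and 6.82 in vivo and 2.27, 2.68 and 4.76 in vitro. In vitro pools 1 and 2 were at background and pool 3 was not (difference -4.97 ± 0.88, adjusted p = 0.0403). TIMP2, an inhibitor of matrix metalloproteinases, read 8.95, 10.37 and 8.77 in vivo and 5.36, 5.25 and 6.01 in vitro, and every in vitro pool was below every in vivo pool (-3.82 ± 0.51, adjusted p = 0.0128). Its other probe set above background gave -1.01 and was not called (adjusted p = 0.0899). HABP2, a serine protease that binds hyaluronan, read 7.61, 10.26 and 8.09 in vivo and 3.99, 5.54 and 3.99 in vitro (-4.15 ± 0.70, adjusted p = 0.0338). The equal values of in vitro pools 1 and 3 may be a floor of that probe set, although they lie above 3.39. DKK3, a secreted protein of the Dickkopf family, read 6.56, 5.28 and 6.67 in vivo against 2.27, 2.27 and 3.10 in vitro. It was at least 6.87-fold lower in vitro, where all pools were at background (-3.62 ± 0.41, adjusted p = 0.00587). TNFAIP6, which crosslinks the hyaluronan matrix, was dimmer, at 4.76, 5.34 and 4.93 in vivo and 2.24 in every in vitro pool, at least 3.08-fold lower (-2.77 ± 0.35, adjusted p = 0.0111). FBLN1, the matrix glycoprotein fibulin-1, read 6.74, 7.47 and 6.08 in vivo and 2.95, 3.01 and 4.32 in vitro (-3.33 ± 0.43, adjusted p = 0.0115).

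The calls of APOA2, TIMP2 and HABP2 depended on single pools. APOA2 lost its call without in vitro pool 1, in vitro pool 2 or in vivo pool 1 (adjusted p up to 0.150), TIMP2 without in vitro pool 1 or 2 (up to 0.0575), and HABP2 without in vitro pool 1 or in vivo pool 3 (up to 0.138). CFI, AREG, DKK3, TNFAIP6 and FBLN1 were called whichever pool was left out.

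At the cell surface, CD48 was lower in vitro and 2 transporters or channels were higher. CD48, a membrane-anchored immune receptor of the SLAM family, read 8.41, 9.60 and 8.67 in vivo and 2.91, 3.17 and 2.97 in vitro. All in vitro pools were at background, including replicate 3, and the level was at least 45.3-fold lower there (-5.87 ± 0.28, adjusted p = 9.89e-05). SLC12A2, the sodium, potassium and chloride cotransporter of fluid-secreting epithelia, read 4.0, 3.35 and 3.52 in vivo and 7.82, 7.24 and 6.88 in vitro (3.69 ± 0.27, adjusted p = 0.000682). Its other probe set above background gave 2.33 (adjusted p = 0.00512). TMEM38B, a cation channel of the endoplasmic reticulum, read 2.63, 2.67 and 2.70 in vivo and 7.01, 5.42 and 5.59 in vitro, at least 6.12-fold higher (3.34 ± 0.35, adjusted p = 0.00443). All of these calls held without any single pool, and CD48 was also called with the poly-A covariate (-5.80, adjusted p = 0.035).

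TSPAN12, a tetraspanin of the Norrin receptor complex, read 2.45, 3.13 and 2.80 in vivo and 7.37, 6.68 and 4.44 in vitro, at least 6.83-fold higher (3.37 ± 0.63, adjusted p = 0.0481). Its call was lost without in vitro pool 1 or 2 or any in vivo pool (adjusted p up to 0.164), and its other probe set gave 2.65 without being called (adjusted p = 0.0967). Other large rises included proteins of the endoplasmic reticulum and the mitochondria. FKBP14, a prolyl isomerase that acts on collagen, read 3.05, 3.74 and 4.94 in vivo and 8.18, 7.62 and 7.55 in vitro (3.87 ± 0.59, adjusted p = 0.0233). TMED5, a cargo receptor between endoplasmic reticulum and Golgi, read 2.42, 2.84 and 2.44 in vivo and 6.76, 6.08 and 5.18 in vitro, at least 6.13-fold higher (3.44 ± 0.46, adjusted p = 0.0133). MICU3, which regulates calcium uptake by mitochondria, read 2.62, 2.23 and 2.24 in vivo and 7.87, 6.63 and 5.05 in vitro, at least 8.75-fold higher (4.16 ± 0.63, adjusted p = 0.0225). In these genes in vitro pool 1 was highest and pool 3 lowest, as in the eIF-4E middle probe set and in 79 of the 155 higher probe sets. The share of uncalled probe sets with that order is not given here, so the count cannot be read as particular to the calls. TMEM50B, a multipass membrane protein, read 2.76, 2.29 and 2.94 in vivo and 8.18, 7.51 and 4.88 in vitro, at least 11-fold higher (4.19 ± 0.71, adjusted p = 0.0334).

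Leaving out 1 pool ended the call of FKBP14 (in vitro 1 or 2, or in vivo 2, adjusted p up to 0.1), of TMED5 (in vitro 2, 0.0542), of MICU3 (in vitro 2, or in vivo 2 or 3, up to 0.0836) and of TMEM50B (in vitro 1 or 2, or any in vivo pool, up to 0.121).

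**Figure D2:**
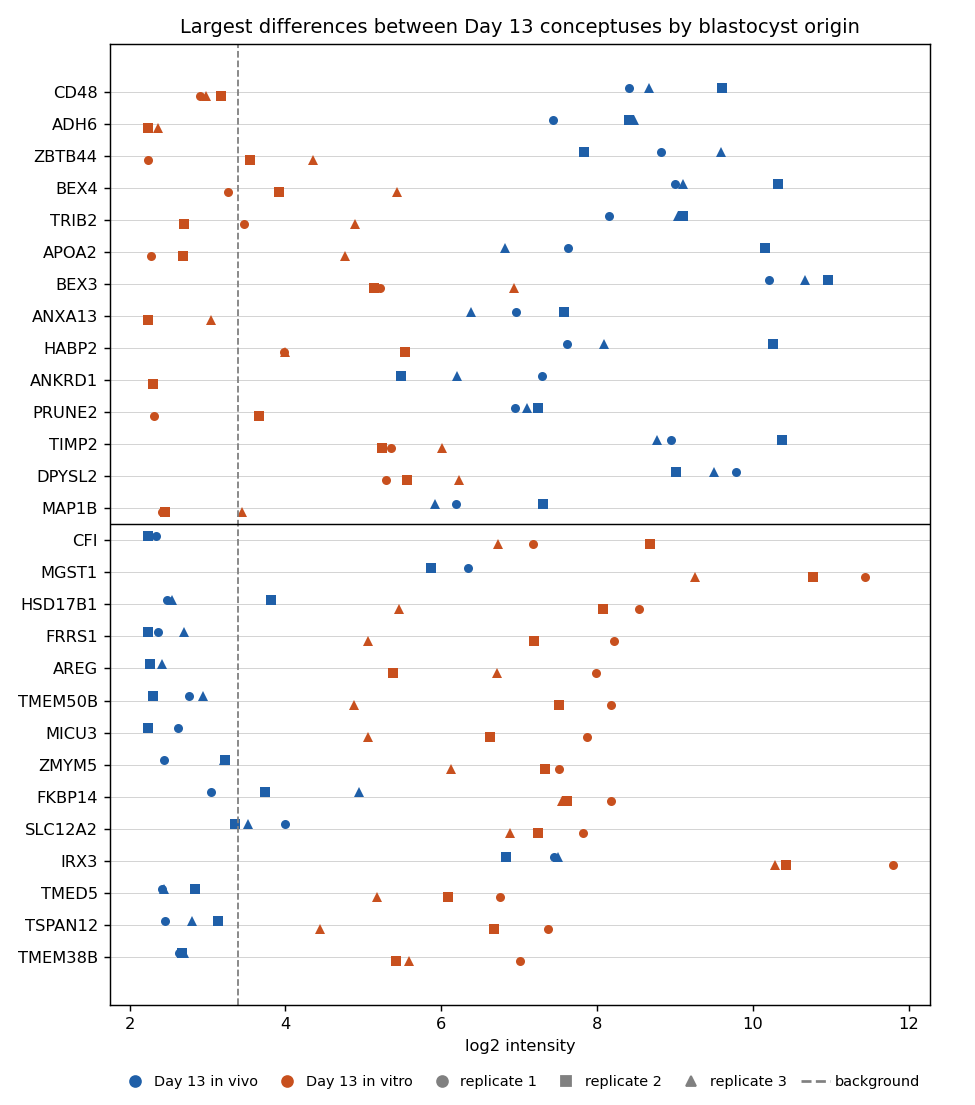
Log2 intensity of the 14 genes with the largest falls (upper block) and the 14 with the largest rises (lower block) in vitro, on each Day 13 array; blue points are in vivo pools, orange points in vitro pools, the shape gives the replicate, and the dashed line is background at 3.39. The genes were chosen among those whose groups do not overlap; in many of them in vitro replicate 3 (orange triangles) is the in vitro point nearest to the in vivo pools.

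Enzymes differed in both directions. ADH6, a member of the alcohol dehydrogenase family that oxidises alcohols and retinol, read 7.44, 8.41 and 8.48 in vivo and 2.24, 2.24 and 2.36 in vitro. It was at background in all in vitro pools and in all Day 7 blastocyst pools, and was at least 26.3-fold lower in vitro at Day 13 (-5.83 ± 0.23, adjusted p = 2.94e-05). Its call held without any single pool and with the poly-A covariate (-5.78, adjusted p = 0.0143). LPL, the lipase that frees fatty acids from lipoproteins, read 7.29, 6.58 and 6.82 in vivo and 2.85, 2.29 and 4.83 in vitro (-3.58 ± 0.55, adjusted p = 0.0237). GSTM3, a cytosolic glutathione transferase, read 4.23, 5.82 and 5.03 in vivo and 2.23 in every in vitro pool, at least 3.12-fold lower (-2.80 ± 0.32, adjusted p = 0.0062).

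MGST1, the microsomal glutathione transferase, moved opposite to GSTM3. It read 6.34, 5.86 and 5.86 in vivo and 11.44, 10.77 and 9.26 in vitro, 22.1-fold higher (4.47 ± 0.53, adjusted p = 0.00807). HSD17B1, which converts estrone to estradiol, read 2.47, 3.81 and 2.55 in vivo and 8.54, 8.08 and 5.46 in vitro (4.42 ± 0.73, adjusted p = 0.0314). FRRS1, a ferric reductase, read 2.36, 2.23 and 2.69 in vivo and 8.22, 7.19 and 5.06 in vitro, at least 10.8-fold higher (4.40 ± 0.65, adjusted p = 0.0207). Both were highest in in vitro pool 1 and lowest in pool 3, which was still above every in vivo pool. AGPAT3, an acyltransferase of phospholipid synthesis, read 8.22, 8.09 and 7.93 in vivo and 10.57, 10.05 and 9.65 in vitro, 4.04-fold higher (2.01 ± 0.22, adjusted p = 0.00522), while its other probe set above background gave 1.09 and was not called (adjusted p = 0.419). The calls of MGST1, AGPAT3 and GSTM3 held without any single pool. Those of LPL (in vitro 1 or 2, or in vivo 1 or 3, adjusted p up to 0.102), HSD17B1 (the same 4 pools, up to 0.112) and FRRS1 (in vitro 2, 0.0813) did not.

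Several cytoskeletal and adaptor proteins were lower in vitro. BEX4 and BEX3, small X-linked adaptor proteins, were both lower. BEX4 read 9.0, 10.33 and 9.10 in vivo and 3.26, 3.92 and 5.43 in vitro (-5.27 ± 0.68, adjusted p = 0.0117). BEX3 read 10.21, 10.96 and 10.67 in vivo and 5.21, 5.14 and 6.93 in vitro (-4.85 ± 0.81, adjusted p = 0.0315). In both genes in vitro pool 3 was the highest of the in vitro pools and still well below the lowest in vivo pool. DPYSL2, a tubulin-binding protein, read 9.79, 9.02 and 9.50 in vivo and 5.29, 5.56 and 6.23 in vitro, 13.3-fold lower (-3.74 ± 0.30, adjusted p = 0.00104), and its other probe set gave -4.12 without being called (adjusted p = 0.0681). MAP1B, a microtubule-associated protein, read 6.19, 7.31 and 5.92 in vivo and 2.42, 2.46 and 3.44 in vitro (-3.70 ± 0.56, adjusted p = 0.0225). TPM1, tropomyosin, read 11.64, 11.36 and 11.12 in vivo and 9.32, 9.57 and 10.17 in vitro (-1.69 ± 0.24, adjusted p = 0.0186). Its other probe set passed the background filter over all 12 arrays but averaged 2.59 in vivo and 2.75 in vitro at Day 13. Both means are below background, so its difference of 0.16 says little about the call. ANXA13, a membrane-binding annexin of epithelia, read 6.96, 7.58 and 6.38 in vivo and 2.23, 2.23 and 3.04 in vitro, at least 12-fold lower (-4.47 ± 0.30, adjusted p = 0.000487).

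ANKRD1, an ankyrin-repeat protein induced by YAP in many cell types, read 7.29, 5.49 and 6.20 in vivo and 2.29 in every in vitro pool, at least 7.65-fold lower (-4.03 ± 0.36, adjusted p = 0.0018). PRUNE2 read 6.94, 7.24 and 7.10 in vivo and 2.31, 3.66 and 3.66 in vitro (-3.88 ± 0.39, adjusted p = 0.00358). The calls of BEX4, DPYSL2, ANXA13, ANKRD1 and PRUNE2 held without any single pool. BEX3 lost its call without in vitro pool 1 or 2 or any in vivo pool (adjusted p up to 0.128), and MAP1B and TPM1 without in vitro pool 1 or 2 (up to 0.0989 and 0.0725).

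Regulators of transcription and signalling also fell on both sides. IRX3, an Iroquois homeobox transcription factor, read 7.45, 6.83 and 7.49 in vivo and 11.80, 10.42 and 10.28 in vitro, 11.9-fold higher (3.57 ± 0.51, adjusted p = 0.0174). ZMYM5, a zinc-finger protein, read 2.44, 3.22 and 3.21 in vivo and 7.51, 7.33 and 6.13 in vitro, at least 12.1-fold higher (4.03 ± 0.67, adjusted p = 0.0314). MYC, which drives growth and ribosome production, read 5.18, 5.37 and 5.73 in vivo and 6.90, 7.38 and 6.45 in vitro, 2.79-fold higher (1.48 ± 0.28, adjusted p = 0.0481). ZBTB44, another zinc-finger protein, was lower, at 8.82, 7.83 and 9.59 in vivo and 2.23, 3.55 and 4.36 in vitro (-5.37 ± 0.70, adjusted p = 0.0117). TCF7, a transcription factor of WNT signalling, read 7.01, 6.26 and 5.43 in vivo and 2.68, 2.81 and 4.31 in vitro (-2.97 ± 0.50, adjusted p = 0.0334). TRIB2, a Tribbles pseudokinase, read 8.15, 9.10 and 9.04 in vivo and 3.47, 2.70 and 4.89 in vitro (-5.08 ± 0.51, adjusted p = 0.00353). Its other probe set passed the background filter over all 12 arrays but averaged 3.15 in vivo and 2.60 in vitro at Day 13, both below background. Its uncalled difference of -0.55 (adjusted p = 0.935) therefore says little about the call of TRIB2. The calls of IRX3, ZBTB44 and TRIB2 held without any single pool, whereas ZMYM5 and MYC lost theirs without in vitro pool 1 or 2 or any in vivo pool (adjusted p up to 0.128 and 0.159), and TCF7 without in vitro 1 or 2 or in vivo 1 or 2 (up to 0.128).

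Members of the lists for RNA processing, chromatin, the cell cycle and the germline were also higher in vitro. PAPOLA, the poly(A) polymerase that adds tails to mRNA, read 7.39, 7.41 and 7.17 in vivo and 8.56, 8.37 and 8.31 in vitro, 2.13-fold higher with little spread (1.09 ± 0.11, adjusted p = 0.00456), and was called whichever pool was left out. HAT1, which acetylates newly made histone H4, read 11.84, 11.43 and 11.67 in vivo and 12.88, 12.77 and 12.68 in vitro (1.13 ± 0.16, adjusted p = 0.0167). CCNE2, cyclin E2 of the G1 to S transition, read 6.60, 5.35 and 6.52 in vivo and 8.72, 8.81 and 8.52 in vitro (2.52 ± 0.36, adjusted p = 0.0188). In HAT1 and CCNE2 the in vitro pools lay closer together than the in vivo pools. DDX21, a nucleolar RNA helicase, read 9.29, 9.52 and 9.21 in vivo and 10.55, 10.04 and 10.53 in vitro (1.04 ± 0.19, adjusted p = 0.0466). TEX12, a synaptonemal complex protein, read 8.81, 7.93 and 7.92 in vivo and 10.68, 10.27 and 11.07 in vitro (2.45 ± 0.44, adjusted p = 0.0428). HAT1 and CCNE2 lost their calls without in vitro pool 1 or 2 (adjusted p up to 0.0746 and 0.0778), DDX21 without in vitro pool 1 or any in vivo pool (up to 0.171), and TEX12 without in vitro 1 or 2 or in vivo 2 or 3 (up to 0.149).

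With replicate 3 as the only in vitro pool, 20 of the 43 called genes named here were still called; since the groups do not overlap, their direction could not change. For CFI, FRRS1, AREG, TMEM50B, MICU3, TSPAN12 and TMEM38B the spread behind that call is the spread of floor values in the other groups. The rises that remained were CFI, MGST1 (3.24), FRRS1 (2.63), AREG, TMEM50B (2.22), MICU3 (2.69), SLC12A2 (3.26), TSPAN12 (1.65), TMEM38B (2.92), AGPAT3 (1.57) and PAPOLA (0.99). The falls that remained were CD48 (-5.92), ADH6 (-5.75), TRIB2 (-3.87), ANXA13 (-3.93), ANKRD1 (-4.03), PRUNE2 (-3.43), DPYSL2 (-3.20) and LPL (-2.07). The call of DLK1, an imprinted gene at background in both groups, also remained. Among the genes no longer called, BEX4 differed by -4.05 (adjusted p = 0.106), DKK3 by -3.07 (0.0738), TIMP2 by -3.35 (0.16), APOA2 by -3.44 (0.485), HSD17B1 by 2.51 (0.0856) and IRX3 by 3.02 (0.0984). With the poly-A covariate CD48 and ADH6 were the only ones of the 43 still called.

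In 12 of the called genes some pools of the dimmer group were at background, so their differences rest in part on unmeasured levels. They are HSD17B1 (in vivo 1 and 3), FKBP14 (in vivo 1), SLC12A2 (in vivo 2), ZBTB44, BEX4 and PRUNE2 (in vitro 1), TRIB2 (in vitro 2), and APOA2, MAP1B, LPL, TCF7 and FBLN1 (in vitro 1 and 2). Equal values above 3.39, in HABP2 (in vitro 1 and 3) and PRUNE2 (in vitro 2 and 3), may be floors of those probe sets as well.

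The best-known products of the elongating trophoblast were not called, although several of them read higher in vitro. IFNT2, an interferon tau gene, read 8.41, 8.99 and 9.98 in vivo and 13.80, 11.95 and 10.89 in vitro. The groups did not overlap, but the in vitro pools spread widely, with replicate 3 nearest to the in vivo pools (difference 3.08 ± 0.84, adjusted p = 0.13). PAG11 read 7.01, 7.98 and 3.39 in vivo and 12.94, 12.16 and 9.94 in vitro (5.56 ± 1.17, adjusted p = 0.067). Its difference was the largest of any gene named here without being called, and it was 3.81 with replicate 3 alone (adjusted p = 0.851). PAG8 (1.38 ± 0.43, adjusted p = 0.176) and PAG2 (1.15 ± 0.82, adjusted p = 0.551) overlapped between origins. TKDP1 was bright everywhere, at 14.81, 14.11 and 14.72 in vivo and 14.40, 15.04 and 14.27 in vitro (0.02 ± 1.02). Members of the interferon tau and PAG families are close in sequence, and their probe sets may share signal.

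Transcription factors and keratins of the trophectoderm were also uncalled. ASCL2, a trophoblast helix-loop-helix factor, read 9.15, 9.82 and 8.82 in vivo and 10.02, 9.92 and 9.97 in vitro (0.70 ± 0.25, adjusted p = 0.216). ELF5, an ETS factor of trophoblast, read 3.06, 4.32 and 4.90 in vivo and 5.22, 6.25 and 4.93 in vitro (1.37 ± 0.47, adjusted p = 0.21). Neither pair of groups overlapped, yet for both genes the gap between the nearest pools of the 2 origins was smaller than the spread within the in vivo group. KRT8 and KRT18, the keratin pair of simple epithelia, differed by -0.03 ± 0.91 and 0.24 ± 0.30 and overlapped. TFAP2A, another trophectoderm factor, chosen after its values were seen, averaged 6.62 ± 1.63 (SD, n = 3) in vivo and 9.84 ± 0.15 in vitro (adjusted p = 0.0941). TEAD4 (7.22 ± 0.65 and 5.64 ± 0.34, adjusted p = 0.143) and DLX4 (6.48 ± 0.94 and 5.54 ± 1.42, adjusted p = 0.565) lay on the other side.

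Of the 16 trophoblast identity genes above background, 0 were called in limma, and their median difference was 0.82 (0.65 with replicate 3 alone). The 11 secreted trophoblast products above background held 1 called gene, TIMP2, and had a median difference of 0.02. Over all 9155 symbols, 150 were called (1.64%), 78 higher in vitro (0.852%) and 72 lower (0.786%), and the median difference of the 5803 above background was 0.09. TIMP1 (10.57 ± 1.31 in vivo, 7.07 ± 1.41 in vitro, adjusted p = 0.112) and the plasminogen activator PLAU (12.47 ± 0.88 and 10.34 ± 0.45, adjusted p = 0.0547), chosen after their values were seen, lay on the same side as TIMP2 without being called.

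Genes of the hypoblast and yolk sac mostly read lower in vitro. Of 16 above background, 13 had a negative difference and 1, APOA2, was called, with a median of -1.44 (-0.99 with replicate 3 alone and -0.66 with the poly-A covariate). The share of all symbols above background with each sign is not given here. The sign counts of this list and of those below can therefore not be set against it. APOE, a lipid carrier, read 10.12, 11.71 and 9.55 in vivo and 7.92, 8.98 and 8.48 in vitro (-2.0 ± 0.60, adjusted p = 0.16). APOA1 read 12.34, 14.56 and 12.74 in vivo and 10.70, 11.85 and 11.92 in vitro (-1.73 ± 1.03, adjusted p = 0.522). Both apolipoproteins were highest in in vivo pool 2, as APOA2 was, and neither overlapped between origins. The list was not lower throughout: GATA6, a hypoblast transcription factor, overlapped between origins (-0.47 ± 0.42, adjusted p = 0.679). COL4A1, a basement membrane collagen (11.09 ± 0.60 in vivo, 8.87 ± 0.65 in vitro, adjusted p = 0.0698), and PDGFRA, a receptor of hypoblast cells (10.64 ± 0.55 and 8.86 ± 0.97, adjusted p = 0.159), are examples chosen after their values were seen.

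The epiblast genes gave 0 calls in limma among 6 above background, and their median difference was -0.31. POU5F1, the pluripotency factor OCT4, read 6.92, 9.43 and 6.72 in vivo and 5.13, 4.51 and 5.30 in vitro. It was lower in every in vitro pool, and in vivo pool 2 stood highest, but the difference of -2.71 ± 0.76 was not called (adjusted p = 0.139). CRIPTO, a NODAL coreceptor chosen after its values were seen, averaged 11.32 ± 0.29 in vivo and 10.03 ± 0.28 in vitro (adjusted p = 0.0681). KLF4 lay on the other side, at 11.80 ± 1.5 in vivo and 13.66 ± 0.21 in vitro (adjusted p = 0.202), as did KLF5, at 11.02 ± 1.06 and 11.84 ± 0.23 (adjusted p = 0.518). SOX2 read 2.36 in every Day 13 pool, at background, so the array did not measure it. In vivo pool 2 was thus the highest Day 13 array for POU5F1 as well as for APOA1, APOA2 and APOE.

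**Figure D3:**
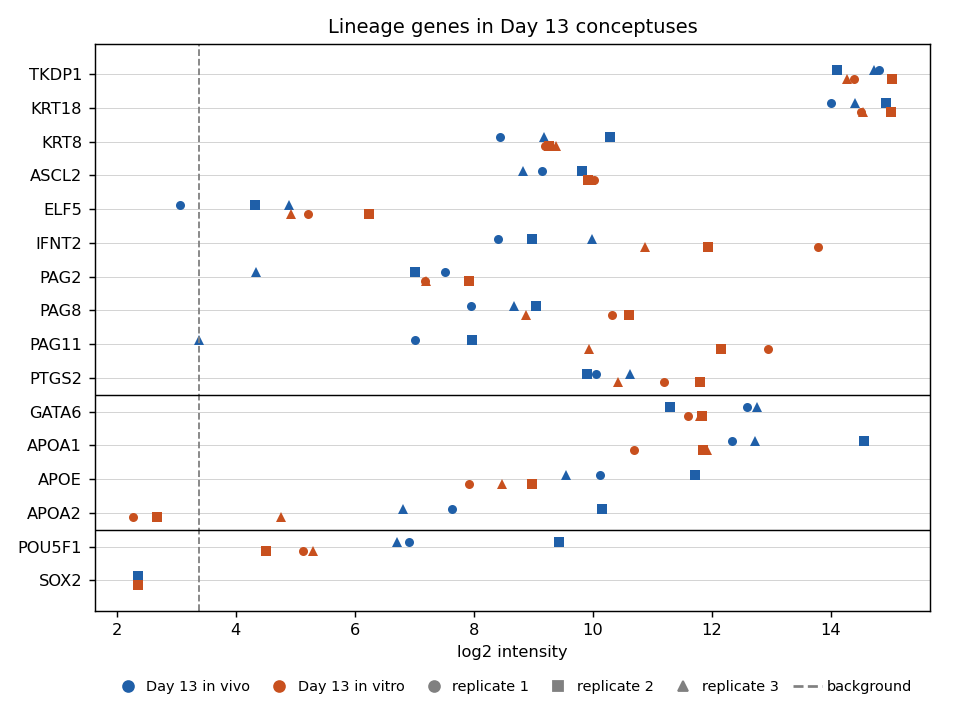
Log2 intensity on each Day 13 array of trophoblast genes (upper block), hypoblast and yolk sac genes (middle block) and epiblast genes (lower block); blue points are in vivo pools, orange points in vitro pools, shapes give the replicate and the dashed line is background at 3.39. PAG11 and IFNT2 sit higher and APOA2 and POU5F1 lower in vitro, while TKDP1, KRT8, KRT18 and GATA6 overlap between origins.

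Some other genes with a known part in the conceptus were uncalled. PTGS2, which makes prostaglandins, overlapped between origins (0.94 ± 0.52, adjusted p = 0.462), as did GJA1, the gap junction protein connexin 43 (-0.22 ± 0.38). DNASE1L3, a secreted deoxyribonuclease, read 12.47, 12.52 and 11.86 in vivo and 13.68, 13.45 and 13.62 in vitro (1.30 ± 0.33, adjusted p = 0.11), while another of its probe sets was called (3.35, adjusted p = 0.0181). XIST, the RNA that coats the inactive X chromosome in female cells, averaged 9.72 ± 0.14 (SD, n = 3) in vivo and 5.34 ± 3.76 in vitro (adjusted p = 0.214). The in vitro pools therefore differed among themselves in XIST far more than the in vivo pools did, and the part of conceptus sex in the other differences was not tested.

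Most lists of genes with a shared function held few called members. Among 75 oxidative phosphorylation genes above background 0 were called, with a median of 0.05, and 61 ribosomal protein genes likewise gave 0 calls with a median of -0.09. Of 45 cell cycle and DNA replication genes 34 had a positive difference, and CCNE2 was called (median 0.54, 0.25 with replicate 3 alone, 0.04 with the poly-A covariate). The proteasome list had 28 positive of 33 and 0 calls (0.36, 0.10 with replicate 3 alone), and the heat shock and unfolded protein list had 25 of 37 and 0 calls (0.45, 0.22 with replicate 3 alone). Glycolysis had 16 positive of 22 with 0 calls, and its median went from 0.53 to -0.18 with replicate 3 as the only in vitro pool. Ribosome biogenesis had 2 called members of 32, DDX21 and MYC (median 0.21, and -0.02 after quantile normalization). Polyadenylation and splicing had 29 positive of 38, with PAPOLA called (0.29).

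Several other lists had negative medians. Among 23 extracellular matrix and proteolysis genes above background 18 had a negative difference, and TIMP2 and TNFAIP6 were called (median -0.55, -0.63 with replicate 3 alone). The actin and adhesion list had 28 negative of 46, with TPM1 called (-0.27). Growth factors and receptors had 22 negative of 31, with AREG called higher and DKK3 and TCF7 lower (-0.45, -0.14 with replicate 3 alone). The cholesterol synthesis list had 11 negative of 15 and 0 calls (-0.30), and the interferon response list had 4 of 7 and 0 calls (-0.50). In the interferon list ISG15, MX1, MX2 and RSAD2 averaged 2.23 in both Day 13 groups, at background. The median of that list therefore rests on other members.

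Other lists held called genes in both directions or none. The fatty acid list had AGPAT3 higher and LPL lower among 32 above background (median -0.15), the oxidative stress list had MGST1 higher and GSTM3 lower among 31 (0.06), and the steroid and retinoid list had HSD17B1 higher and ADH6 lower among 17 (-0.15). One member each was called in the lists of solute carriers (SLC12A2, of 26), chromatin (HAT1, of 26), germline genes (TEX12, of 5) and amino acid response (TRIB2, lower, of 34). The sign of small medians depended on the scaling: after quantile normalization oxidative phosphorylation had -0.22, oxidative stress -0.26 and secreted trophoblast products -0.05, and centring on ribosomal protein genes put the median of those genes themselves at 0.02. In the imprinted list the only call was DLK1, a NOTCH-like ligand, at 2.73, 2.62 and 2.63 in vivo and 2.33 in every in vitro pool, with both groups at background (-0.33 ± 0.03, adjusted p = 0.00118). The lists for prostaglandins (10 above background), hypoxia (19), apoptosis (15), antigen presentation (7), junctions (23) and one-carbon metabolism (22) each gave 0 calls in limma. Over all symbols 1.64% were called, a share that, unlike these lists, also counts symbols at background. At an unadjusted p below 0.05 there were 3841 of the 24016 probe sets.

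**Figure D4:**
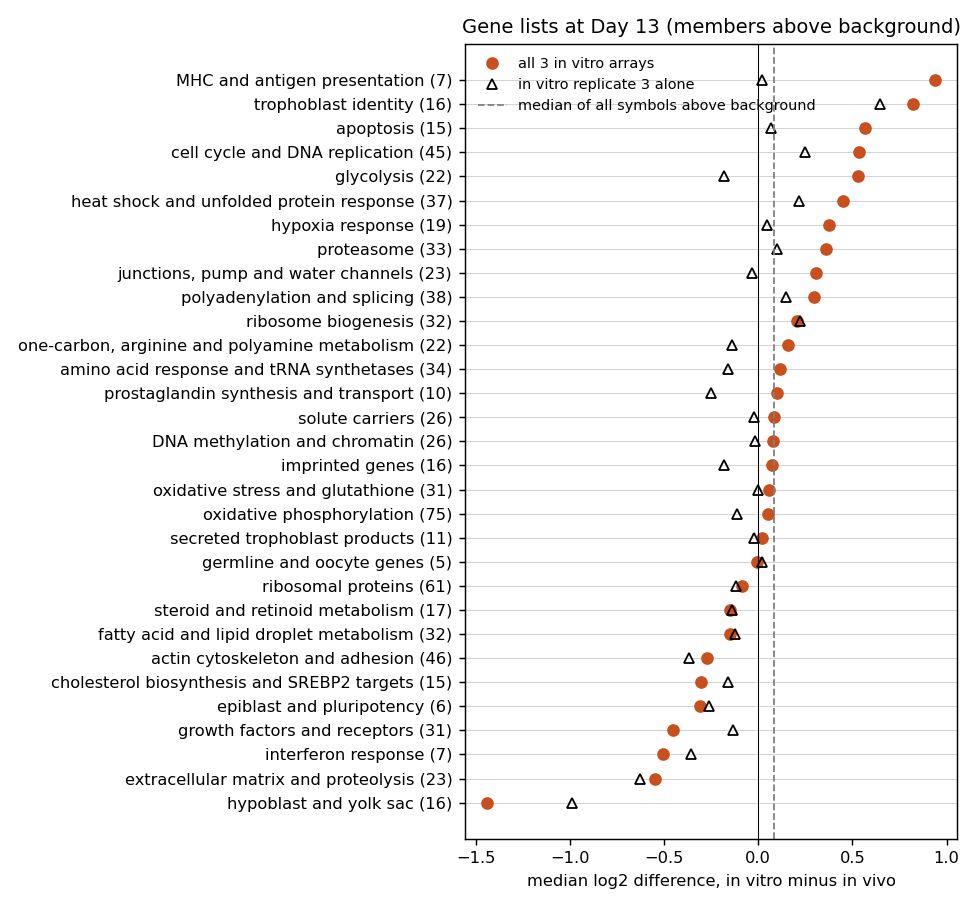
Median log2 difference, in vitro minus in vivo at Day 13, of each gene list over its members above background (number in brackets); orange dots use all 3 in vitro arrays, open triangles in vitro replicate 3 as the only in vitro array, and the dashed line is the median of all symbols above background, 0.09. Hypoblast and yolk sac genes sit lowest at -1.44, and most medians above 0.3 lie nearer to 0 with replicate 3 alone.

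Markers of cells that could accompany a conceptus were mostly at background. Of 32 leukocyte genes, 25 were at background on all 6 Day 13 arrays, among them PTPRC, CD3D, CD3E, CD3G and CD14, and the sum of their log2 levels ran from 86.1 to 94.0 in vivo and from 79.2 to 81.7 in vitro, with CD48 the only call. CD48 itself was bright in Day 7 blastocysts, at 12.01 in vivo and 12.35 in vitro. Within the leukocyte sum CD48 differed by -5.87 and LCK, uncalled, by -1.58. A sum of log2 levels is not an amount of RNA from a cell type, and levels at background have no order. The sums here and below therefore do not measure how many such cells were present. Of 14 endometrial epithelium genes 12 were at background, including PAEP, SERPINA14, LTF, PGR and ESR1, with sums of 32.1 to 34.2 in vivo and 32.7 to 34.6 in vitro. Of 17 endometrial stroma genes 8 were at background, including DCN, LUM and COL3A1, with sums of 63.8 to 67.3 in vivo and 57.6 to 59.8 in vitro and FBLN1 called lower. Others in that list were measured, on both sides and without a call. COL1A2 averaged 4.78 in vivo and 2.37 in vitro, CNN1 5.18 and 4.33, and THY1 6.05 and 7.28. Of 14 cumulus and granulosa genes 9 were at background, including FSHR, CYP19A1 and AMH, with sums of 50.8 to 54.6 and 45.3 to 47.6 and TNFAIP6 called lower. The erythrocyte list (7 of 9 at background, sums 21.1 to 22.4 and 20.8 to 21.9) and the endothelium list (9 of 13, sums 40.7 to 42.5 and 38.7 to 40.6) had 0 calls.

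Few probe sets called at Day 13 were also called in the blastocysts before transfer. At Day 7 origin was called in 50 probe sets (0.208%), and 1 gene, PAPOLA, was called on both days, at 1.12 on Day 7 (adjusted p = 0.0122) and 1.09 on Day 13. Of the probe sets called at Day 13, 43 of the 155 higher and 48 of the 133 lower were at background in all Day 7 pools and could show no difference there. Among the others, the Day 7 difference was below 1 in size in 102 of 112 higher and 74 of 85 lower probe sets. These probe sets were chosen by their Day 13 difference, so a smaller Day 7 difference follows in part from that choice. The same share over all measured probe sets is not given here. The change of the origin difference from Day 7 to Day 13 was called in 96 probe sets (0.4%), of which 68 were among the Day 13 calls, 26 higher and 42 lower.

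The group means of BEX4, BEX3 and DKK3 changed order between the days, although none of these genes was called at Day 7. Each change also contains the Day 13 difference for which the gene was already called. BEX4 averaged 3.52 in vivo and 7.15 in vitro in blastocysts, so its mean was higher in vitro at Day 7 and lower at Day 13 (change -8.90, adjusted p = 0.00833). BEX3 went from 4.68 in vivo and 7.31 in vitro at Day 7 to the reverse order at Day 13 (-7.48, adjusted p = 0.045). DKK3 averaged 2.75 in vivo, below background, and 4.64 in vitro in the blastocysts, and changed by -5.51 (adjusted p = 0.00671). For all of them the mean at Day 13 was above that at Day 7 in embryos of in vivo origin and below it in those of in vitro origin. CD48 and TRIB2, by contrast, were bright in blastocysts of both origins, TRIB2 at 11.02 in vivo and 11.35 in vitro, and their Day 13 levels were the lower ones. CFI, ADH6, ANXA13 and ANKRD1 were at background at Day 7 in both origins and were measured at Day 13 in one.

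**Figure D5:**
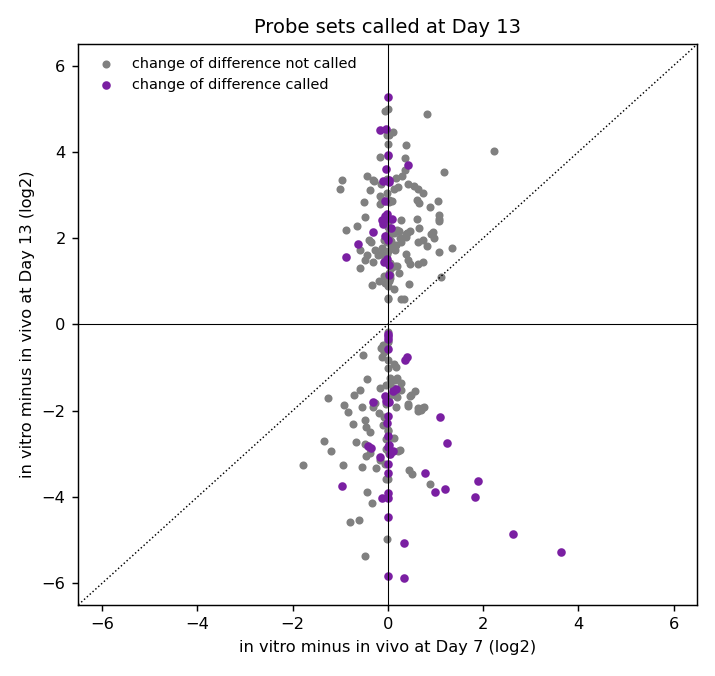
Difference between origins (in vitro minus in vivo, log2) at Day 7 on the horizontal axis and at Day 13 on the vertical axis for the 288 probe sets called at Day 13; purple points are the 68 whose change of difference was also called, and the dotted line marks equal differences. Most points lie near 0 on the Day 7 axis, and the purple points at the lower right are probe sets whose mean was higher in vitro at Day 7 and lower at Day 13.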

How the data were processed

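RNA from 12 pools was measured on 1-colour Affymetrix bovine arrays. The values are log2 intensities as the authors deposited them in 1 table; RMA, GCRMA and limma appear in the submitters' processing notes, and which of the first 2 made these values is not given in the sources used here. Nothing was renormalized. Of 24016 tested probe sets, 13292 carried 1 gene symbol (9155 symbols) in the platform annotation and 10724 were not named. Between 41.3% and 42.0% of probe sets were above background on each array. Means of 4 groups were fitted in limma 3.58.1 (R 4.3.3) over all 12 arrays with 8 residual degrees of freedom, with eBayes and Benjamini-Hochberg adjustment, and the scripts were tested on simulated data.

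The members and gene lists were chosen with earlier results of these data known. Named genes are the 14 largest called rises and falls whose groups do not overlap and whose brighter group is above the median of all probe sets, up to 5 called members of each list, and fixed embryo genes (GATA2 was not analysed here), 61 in all, each by its brightest probe set; others are marked as chosen after their values were seen. A list counts as above background the members above 3.39 on at least 3 of 12 arrays. In 22 called genes, 23 other probe sets were above background, 21 of them with the same sign and 1 of them called, and those of RTN3 and TPM1 with the opposite sign. That filter counts all 12 arrays, and the other probe sets of TPM1 and TRIB2 had both Day 13 means below 3.39. Alternatives were other normalizations, filters, covariates and moderation, a replicate block, and leaving out arrays. Replicate numbers did not pair the pools: of 18 same-numbered pairs, 3 had deviations correlated above 0.1 (median r = -0.06). The number of arrays limits the precision.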

Additional observations from a re-analysis of the deposited data

Results flagged for a closer look

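For 15 named genes the difference between origins at Day 13 differed from that at Day 7 in a test of the change itself (limma interaction, adjusted p below 0.05), which was called in 0.4% of all probe sets. The change was positive for CFI (5.26), TMEM38B (3.32) and SLC12A2 (3.26). It was negative for BEX4 (-8.90), BEX3 (-7.48), CD48 (-6.21), ADH6 (-5.83), DKK3 (-5.51), TRIB2 (-5.41), TIMP2 (-5.02), ANXA13 (-4.47), ANKRD1 (-4.04), GSTM3 (-2.83), DPYSL2 (-2.78) and DLK1 (-0.33). All 15 were already called at Day 13, and the change contains that same difference, so their count is not a separate result. CFI, ADH6, ANXA13 and ANKRD1 were at background at Day 7, so their change restates the Day 13 difference. For DLK1 all groups were at background.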

How the results depend on the processing

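The number of calls depended on the setting. The signs of the 288 calls did not change where they were tested, which leaving out arrays could not do to groups that do not overlap. Called probe sets, with those higher and lower in vitro and then those called for the change of the difference from Day 7, were as follows. Centring on medians gave 12836 (1212 and 11624) and 164. Centring on ribosomal protein genes gave 683 (414 and 269) and 184. Testing only probe sets above background on at least 3 arrays gave 1215 (747 and 468) and 278. The replicate block gave 119 (55 and 64) and 47, and 20 of the 43 called named genes stayed called. An intensity trend with robust moderation gave 100 (44 and 56) and 20. Array weights, whose estimation stopped before it converged, gave 2235 (1324 and 911) and 460. The poly-A covariate gave 9 (5 and 4) and 11, and the hybridization covariate 3 (1 and 2) and 32. With the 6 Day 13 arrays alone 0 were called (0 and 0) in limma, and 2178 had an unadjusted p below 0.05; that fit has fewer arrays. With replicate 3 as the only in vitro array there were 459 (404 and 55) and 424. For these counts the cause was not tested.

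Leaving out 1 array gave 135 to 2058 calls (71 to 1358 higher and 63 to 700 lower) and 78 to 1083 for the change. The lowest counts came without in vitro replicate 1 (135) or 2 (152), and the highest without in vitro replicate 3 (2058). Without in vivo replicate 1, 2 or 3 there were 335, 357 and 351. Of the 170 called probe sets with a symbol, 59 were called whichever array was left out, 51 with replicate 3 as the only in vitro array and 5 with the poly-A covariate. The poly-A difference ran from -4.56 to -2.70 and the hybridization difference from -2.37 to -1.58 without 1 array, alternatives chosen after the data were seen. Levels under 3.39 have no order.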

Other observations

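The genes in this section were chosen after their values were seen. EGFLAM, a retinal and muscle matrix protein, read 5.79, 5.28 and 5.35 in the Day 13 in vivo pools and 2.23 in every other pool of the study, at least 4.24-fold lower in vitro at Day 13 (limma adjusted p = 1.06e-05). It was called whichever array was left out and with the poly-A covariate (adjusted p = 0.0082). CD69, an early activation receptor of lymphocytes, was the reverse, at 2.23 in every in vivo pool and 5.03, 4.92 and 4.07 in vitro, at least 2.44-fold higher (adjusted p = 0.00173, and 0.0312 with the covariate). NR4A2, an orphan nuclear receptor, read 3.54 in every in vivo pool and 4.64, 5.03 and 6.03 in vitro (1.69, adjusted p = 0.0334), and it was highest in in vitro pool 3. With CD48 and ADH6 these make up the 5 called probe sets with a symbol that were also called with the poly-A covariate. NR4A2 lost its call without in vitro pool 2 or any in vivo pool (adjusted p up to 0.086). Its identical value in every in vivo pool may be a floor of that probe set, although it lies above 3.39. The NR4A2 difference and its p-values may thus rest on an unmeasured in vivo level.

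PHC1, a Polycomb group protein, read 8.32, 8.49 and 8.30 in vivo and 5.21, 5.47 and 5.21 in vitro (-3.07 ± 0.21, adjusted p = 0.000487). It had averaged 8.55 in vivo and 8.38 in vitro in blastocysts. The equal values of PHC1 in in vitro pools 1 and 3 may be a floor of that probe set, although they lie above 3.39. The PHC1 difference and its p-value may thus rest in part on an unmeasured in vitro level. TKTL1, a transketolase-like protein, read 5.86, 5.23 and 6.34 in vivo and was at background in vitro, at least 5.34-fold lower (adjusted p = 0.000856). OSR2, a zinc-finger transcription factor, was at background in every in vivo pool and read 4.01, 4.59 and 3.99 in vitro, at least 1.75-fold higher (adjusted p = 0.000513). F2, prothrombin, another plasma protein, read 11.21, 11.56 and 10.75 in vivo and 7.25, 8.29 and 9.25 in vitro (-2.91 ± 0.44, adjusted p = 0.0221), a call lost without in vitro pool 2 or in vivo pool 1 or 2 (adjusted p up to 0.0763).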
